A study of Mus musculus with 12 samples.

Results

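The enzymes of serine synthesis and of the folate one-carbon cycle were followed through 10 genes in whole mouse pancreas, out of 49585 genes counted in each library. The members were found by symbol among the Ensembl identifiers: Phgdh, Psat1 and Psph of serine synthesis, Shmt1, Mthfd1 and Aldh1l1 of the cytosolic folate cycle, and Shmt2, Mthfd2, Mthfd1l and Aldh1l2 of the mitochondrial one. All 10 passed the filter on low counts, as did 14329 genes in all. The animals were C57Bl6 mice, called wild type here, and a congenic line labelled Atf3-/-, called labelled knockout here. That name is used because Atf3 counts were not lower in the line, apart from library C3, described below. The mice were 2 to 4 months old. They received 4 injections over 4 h, of cerulein at 50 ug/kg or of saline, and the pancreas was taken at 4 h. Cerulein is a cholecystokinin analogue that overstimulates the acinar cells and is used to induce pancreatitis. The 12 libraries of total RNA form 4 groups of 3: labelled knockout with cerulein (C2, C3 and L4), wild type with cerulein (O1, O3 and N3), labelled knockout with saline (S1, K4 and Q1) and wild type with saline (W1, K5 and R3). The labels do not say which part of Atf3 was removed, or give sex, litter or day.

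Serine is built from the glycolytic intermediate 3-phosphoglycerate by PHGDH, PSAT1 and PSPH in the cytosol. The serine hydroxymethyltransferases then move a carbon from serine to tetrahydrofolate and leave glycine. Cells hold a set of folate enzymes in the cytosol and a parallel set in mitochondria, and formate made by the mitochondrial set supplies carbon units for purines, thymidylate and methyl groups. Acinar cells make and export large amounts of protein and so draw heavily on amino acids.

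Totals ran from 18292997 to 32158629 counts per library. A level is given below in CPM, counts scaled to a total of 1000000 on library sizes scaled by edgeR's TMM method. Atf3, which encodes a stress-induced transcription factor, stood at 1375 CPM in C2, 1636 CPM in L4 and 20.7 CPM in C3 with cerulein, against 775 (O1), 599 (O3) and 394 CPM (N3) in wild type. With saline Atf3 stood at 23.1 (S1), 7.44 (K4) and 13.5 CPM (Q1) in the labelled knockout. In wild type with saline it stood at 3.23 (W1), 1.13 (K5) and 5.28 CPM (R3). C3, labelled knockout and cerulein, stood apart from the other cerulein libraries. Among the 4399 genes called in wild type it lay nearer the wild-type saline mean for 93.3%, against 10.7% for C2 and 8.87% for L4. It is kept as labelled in every 12-library result, and each result that rests on it is also given without it. Summed levels of 8 acinar markers were 214076 to 268358 CPM in wild type with cerulein and 316885 to 372905 CPM in wild type with saline. In the labelled knockout they were 222990 (L4), 255659 (C2) and 346756 CPM (C3) with cerulein and 290611 to 436048 CPM with saline. In N3, 6 adipocyte markers summed to 333.7 CPM and 9 leucocyte markers to 386.5 CPM, and in K4 to 422.9 and 248.4 CPM, above the other 10 libraries in both lists.

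In wild type, cerulein raised the whole serine synthesis branch and 3 of the 4 mitochondrial folate enzymes. None of the 3 cytosolic folate enzymes passed the test as higher. The cerulein libraries of Shmt1 did lie above its saline libraries, at a log2 fold change of 0.55 ± 0.28 (edgeR adjusted p = 0.163). Of the 10 genes 6 rose, 2 fell and 2 did not pass edgeR's quasi-likelihood test at a Benjamini-Hochberg adjusted p of 0.05, where 30.7% of all genes tested were called (17.9% higher and 12.8% lower). The median log2 fold change of the 10 was 1.06, against 0.05 over all genes tested. For all 10 the 3 cerulein libraries lay entirely above (7 genes) or below (3 genes) the 3 saline libraries, as they did for 27.5% and 24.9% of all genes. Without C3, which is in neither wild-type group but shares the estimate of the spread, 6 rose and 3 fell, and 37.9% of genes were called. Fewer cells of a type and less RNA per cell cannot be told apart in whole tissue.

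**Figure D1:**
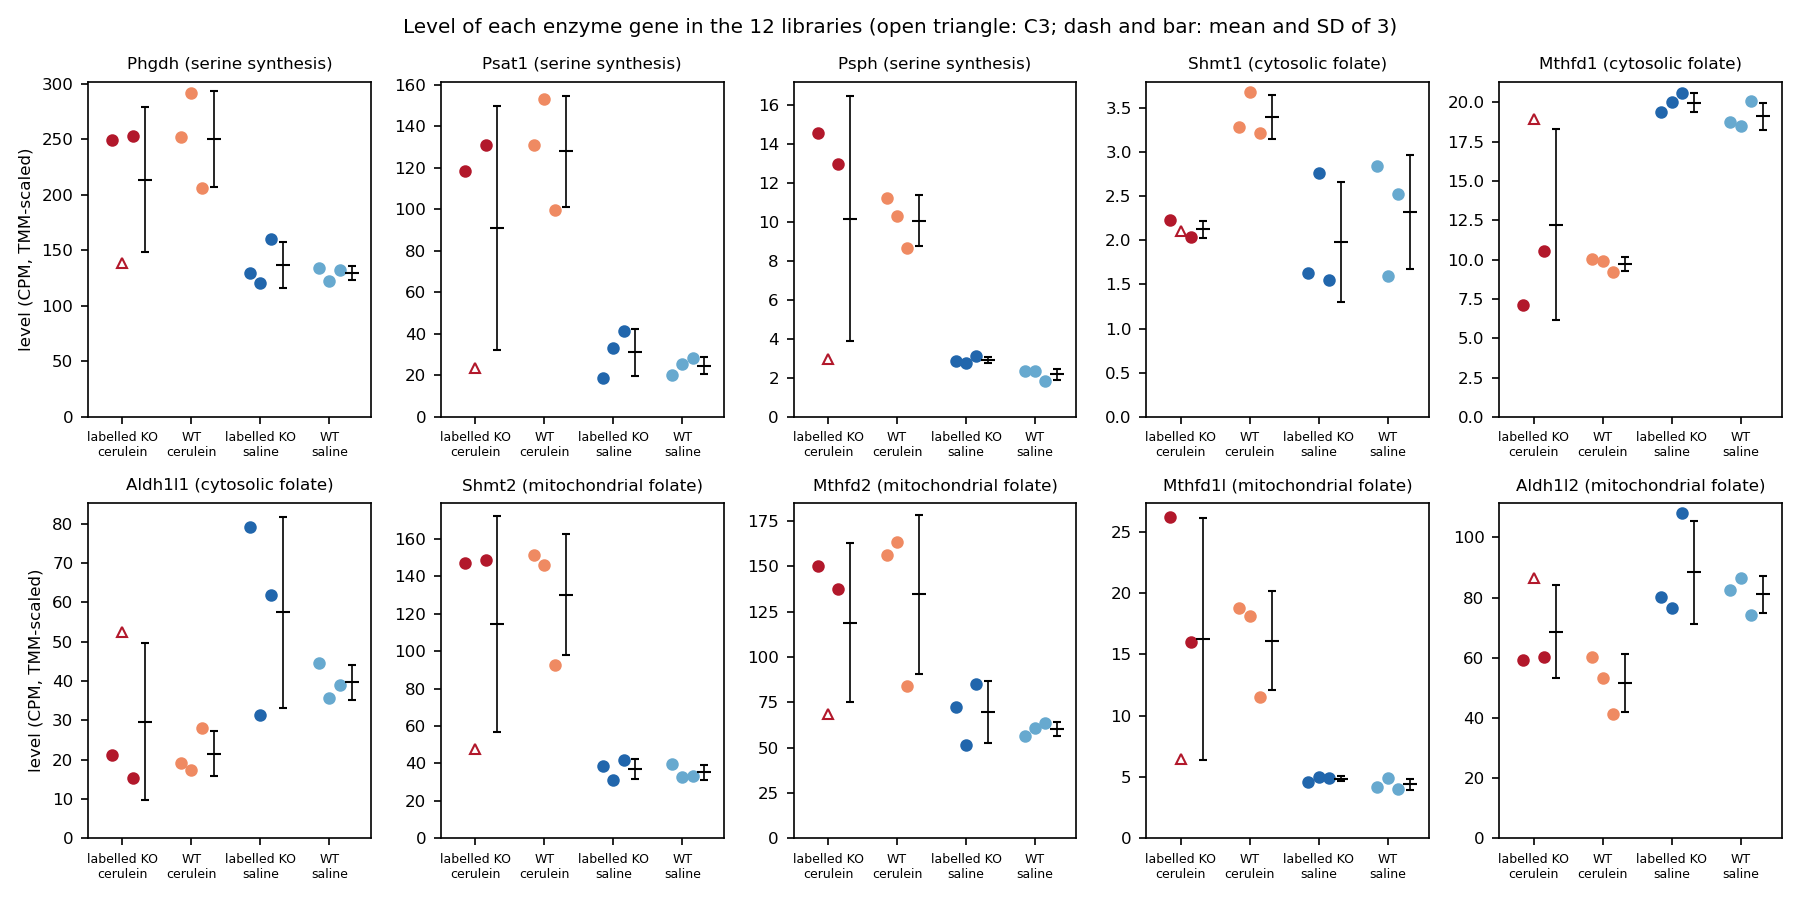
Level of each gene (CPM, linear axis from 0) in the 12 libraries, grouped as labelled knockout with cerulein, wild type with cerulein, labelled knockout with saline and wild type with saline. Points are libraries, the open triangle is C3, and the dash with its bar is the mean and SD of the 3 libraries. Psat1, Psph, Shmt2 and Mthfd1l are high in 5 cerulein libraries and low in C3 and the 6 saline libraries, and Mthfd1 shows the reverse.

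The promoter windows of 3 members are printed because they belong to the largest rise (Psat1), to the induced mitochondrial dehydrogenase Mthfd2 and to its cytosolic counterpart, which fell (Mthfd1). Each run holds the 250 bases before the start, 5′ to 3′ on the gene's strand, from RefSeq on GRCm38.p6. Capitals mark CCAAT or, on the other strand, ATTGG, the letters of the CCAAT box. The Psat1 window is chr19:15925060-15925309 on the minus strand, that of Mthfd2 chr6:83317605-83317854 on the minus strand, and that of Mthfd1 chr12:76254982-76255231 on the plus strand.
Psat1: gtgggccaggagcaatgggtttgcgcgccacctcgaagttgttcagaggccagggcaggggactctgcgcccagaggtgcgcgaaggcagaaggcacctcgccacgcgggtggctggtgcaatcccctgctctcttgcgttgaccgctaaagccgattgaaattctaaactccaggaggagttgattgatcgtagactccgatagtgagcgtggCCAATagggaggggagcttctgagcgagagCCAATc
Mthfd2: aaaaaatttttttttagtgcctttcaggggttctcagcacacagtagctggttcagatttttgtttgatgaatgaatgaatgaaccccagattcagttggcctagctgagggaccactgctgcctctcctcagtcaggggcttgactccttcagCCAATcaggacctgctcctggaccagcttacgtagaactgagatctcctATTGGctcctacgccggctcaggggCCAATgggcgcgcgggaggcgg
Mthfd1: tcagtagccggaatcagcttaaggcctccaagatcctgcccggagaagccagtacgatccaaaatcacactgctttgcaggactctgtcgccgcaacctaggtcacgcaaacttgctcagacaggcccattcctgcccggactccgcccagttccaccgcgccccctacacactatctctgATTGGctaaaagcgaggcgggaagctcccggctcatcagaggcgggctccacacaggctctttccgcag
The printed bases hold 2 CCAAT boxes for Psat1, 3 for Mthfd2 and 1 for Mthfd1. The Psat1 and Mthfd2 windows lie within the gene spans given with each gene, and that of Mthfd1 lies just before its gene. Psat1 has a second RefSeq start with no CCAAT in its 250 bases. In windows of 300 bases, which add the 50 bases after the start, 7 of the 9 members with a window held CCAAT on either strand, all but Shmt2 and Mthfd1l. The same letters occur in 37.41% of all 32851 promoter windows, and this motif was chosen after the sequences were read. The letters did not follow the direction of change, since Shmt2 and Mthfd1l rose without them and Mthfd1 fell with them. None of the 9 windows held TGATGNAA (the core of the CARE element, which ATF4 can bind), TGACGTCA (CRE), TGACTCA (AP-1) or CACGTG (E-box) on either strand. These letters occur in 3.97%, 1.79%, 5.2% and 7.15% of all windows, and their absence from a short window says nothing about the factors.

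Phgdh, the entry enzyme of serine synthesis (ENSMUSG00000053398, GRCm38 chromosome 3, 98313170 to 98339990, minus strand), was the most abundant member per kb of exon in every group. It stood at 252 (O1), 292 (O3) and 206 CPM (N3) in wild type with cerulein, against 134 (W1), 122 (K5) and 132 CPM (R3) with saline. All cerulein libraries were above all saline libraries. The fitted log2 change was 0.95 ± 0.25 (SE here and below, with 3 libraries a group, edgeR adjusted p = 0.0169), 1.93-fold. The call was lost without K5 (0.0631), R3 (0.0571) or O3 (0.0668). Its annotated pseudogene Phgdh-ps1 did not exceed 0.0737 CPM in any library.

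Psat1, the aminotransferase of the middle step (ENSMUSG00000024640, chromosome 19, 15904678 to 15947337, minus strand), showed the largest rise of the 10. It reached 131 (O1), 153 (O3) and 99.8 CPM (N3) with cerulein, against 20.1 (W1), 25.6 (K5) and 28.5 CPM (R3) with saline. Even N3, the lowest cerulein library, was well above every saline library. In log2 terms the change was 2.37 ± 0.53 (edgeR adjusted p = 0.0113), 5.17-fold.

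Psph, the phosphatase that releases serine (ENSMUSG00000029446, chromosome 5, 129765558 to 129787449, minus strand), was scarce. It had 11.2 (O1), 10.3 (O3) and 8.67 CPM (N3) with cerulein, against 2.33 (W1), 2.36 (K5) and 1.85 CPM (R3) with saline. The groups did not overlap, and the log2 fold change was 2.21 ± 0.46 (edgeR adjusted p = 0.00973). Its exons share 452 bases with those of Cct6a, a chaperonin subunit gene on the opposite strand. Cct6a itself rose by 0.53 (adjusted p = 0.0241), less than Psph, and the strand setting of the counting is not given in the sources used here.

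Among the mitochondrial enzymes, Shmt2 splits serine into glycine and a carbon unit (ENSMUSG00000025403, chromosome 10, 127517123 to 127522444, minus strand). Its level was 152 (O1), 146 (O3) and 92.9 CPM (N3) with cerulein, against 40.0 (W1), 32.8 (K5) and 33.2 CPM (R3) with saline. Every cerulein library was above every saline library, with N3 again the lowest of the cerulein libraries. Cerulein over saline gave a log2 fold change of 1.88 ± 0.38 (edgeR adjusted p = 0.00925), 3.69-fold.

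Mthfd2, the mitochondrial dehydrogenase and cyclohydrolase (ENSMUSG00000005667, chromosome 6, 83305691 to 83325908, minus strand), had 156 (O1), 163 (O3) and 83.9 CPM (N3) with cerulein, against 56.2 (W1), 60.6 (K5) and 63.6 CPM (R3) with saline. O1 and O3 were far above saline and N3 only a little above it. The log2 fold change was 1.16 ± 0.33 (edgeR adjusted p = 0.0239). Of the wild-type libraries only N3 could be left out with the call kept (adjusted p up to 0.0861 without the others).

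Mthfd1l, the mitochondrial synthetase that releases formate (ENSMUSG00000040675, chromosome 10, 3973118 to 4167081, plus strand), had 18.8 (O1), 18.1 (O3) and 11.5 CPM (N3) with cerulein, against 4.20 (W1), 4.93 (K5) and 4.06 CPM (R3) with saline. The groups were well separated. The fitted log2 change was 1.87 ± 0.40 (edgeR adjusted p = 0.0106), 3.66-fold. Psat1, Psph, Shmt2 and Mthfd1l kept their wild-type calls under all 21 alternatives tried.

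Aldh1l2, the mitochondrial dehydrogenase that oxidises 10-formyltetrahydrofolate to carbon dioxide (ENSMUSG00000020256, chromosome 10, 83487450 to 83534140, minus strand), went the other way. It had 60.2 (O1), 53.4 (O3) and 41.4 CPM (N3) with cerulein, against 82.4 (W1), 86.6 (K5) and 74.2 CPM (R3) with saline. The groups did not overlap, but the log2 fold change of -0.65 ± 0.22 was close to the threshold (edgeR adjusted p = 0.0425). Leaving out S1 or any 1 wild-type library ended the call (adjusted p up to 0.124), as did DESeq2 size factors (0.0518) and the lack of a filter on low counts (0.0976). Its exons share 1056 bases with D10Wsu102e on the opposite strand, whose own change was -0.37 (adjusted p = 0.204).

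Of the cytosolic folate enzymes, Mthfd1 carries all the interconversion steps in 1 protein (ENSMUSG00000021048, chromosome 12, 76255298 to 76319803, plus strand). It had 10.1 (O1), 9.92 (O3) and 9.20 CPM (N3) with cerulein, against 18.8 (W1), 18.5 (K5) and 20.1 CPM (R3) with saline. The libraries of each group were close together, and cerulein was lower throughout. In log2 terms the change was -0.97 ± 0.27 (edgeR adjusted p = 0.0227), and leaving out any of the 6 wild-type libraries moved the adjusted p above 0.05, up to 0.0678. Without C3 the adjusted p was 0.000421.

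Aldh1l1, the cytosolic counterpart of Aldh1l2 (ENSMUSG00000030088, chromosome 6, 90486427 to 90600203, plus strand), had 19.3 (O1), 17.4 (O3) and 28.0 CPM (N3) with cerulein, against 44.4 (W1), 35.6 (K5) and 39.0 CPM (R3) with saline. Cerulein libraries were all below saline libraries, but the log2 fold change of -0.88 ± 0.45 did not pass (edgeR adjusted p = 0.155). It passed without C3 (adjusted p = 0.0461) and with the wild-type libraries fitted alone (adjusted p = 0.0189).

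Shmt1, the cytosolic serine hydroxymethyltransferase (ENSMUSG00000020534, chromosome 11, 60788104 to 60811718, minus strand), was among the scarcest members. It had 3.28 (O1), 3.68 (O3) and 3.22 CPM (N3) with cerulein, against 2.85 (W1), 1.59 (K5) and 2.52 CPM (R3) with saline. The groups did not overlap, and the log2 fold change of 0.55 ± 0.28 did not pass (edgeR adjusted p = 0.163). Its exons share 184 bases with Smcr8 on the opposite strand, which had a log2 fold change of 0.85 (adjusted p = 0.0363).

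N3 was the lowest wild-type cerulein library for 9 of the 10 members, all but Aldh1l1, and it is the library with the high adipocyte and leucocyte sums. The part of those cells in its values was not tested. Duct markers moved with cerulein too, with sums over 6 genes of 211.9 to 374.6 CPM in wild type with cerulein and 68.3 to 83.3 CPM with saline. In the labelled knockout they were 237.0 (C2), 204.7 (L4) and 89.0 CPM (C3) with cerulein and 59.4 to 77.4 CPM with saline. In wild type 4 of the 6 rose and 0 fell, and 3 of 8 acinar markers fell. Their part in the changes of the enzyme genes was not tested.

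In the labelled knockout the 10 log2 fold changes had the signs seen in wild type, with C3 and without it, but that of Shmt1 was near 0 and turned negative when S1 or Q1 was left out (-0.03 and -0.05). Whether any passed the test depended on C3. With all 3 libraries 0 of 10 members passed edgeR's test, as did 0 of all genes tested (0% called), although 7 of the 10 and 3256 of all genes had an unadjusted p under 0.05. DESeq2 on the same libraries called 1281 genes, among them Psat1 (adjusted p = 0.0369), Psph (0.00394), Shmt2 (0.00158) and Mthfd1l (0.00200). With all 3 libraries, Shmt2 and Mthfd1l lay wholly above saline (9.41% of all genes did) and Mthfd1 wholly below (6.35%). Without C3, 6 members rose and 2 fell, with 29.2% of all genes called (18.7% higher and 10.5% lower), and 6 lay wholly above and 3 wholly below saline (29% and 23.4% of all genes). The cerulein arm then holds 2 libraries, and L4 stands apart in islet markers. Summed over 6 genes these reached 11020 CPM in L4, 1287 CPM in C2 and 440.9 CPM in C3, against 749.0 to 1121 CPM in the labelled knockout with saline. Without C3 the islet hormone genes Ins1, Ins2 and Iapp were called higher (log2 fold changes of 2.90, 2.78 and 2.70, edgeR adjusted p of 0.0291, 0.0352 and 0.0336), and Gcg, Sst and Ppy were not. For each of the 8 members called, C2 and L4 both lay beyond every saline library of their genotype. The calls came from these same libraries, so this is no separate evidence. The part of islet cells in the calls was not tested.

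In serine synthesis, Phgdh had 249 (C2), 253 (L4) and 139 CPM (C3) with cerulein, against 129 (S1), 120 (K4) and 160 CPM (Q1) with saline. Only C3 fell inside the saline range. Cerulein over saline gave a log2 fold change of 0.65 ± 0.25 with C3 (edgeR adjusted p = 0.157) and 0.88 ± 0.18 without it (adjusted p = 0.00488). Psat1 had 118 (C2), 131 (L4) and 23.6 CPM (C3), against 18.8 (S1), 33.1 (K4) and 41.4 CPM (Q1) with saline. C3 was lower than 2 of the 3 saline libraries, and C2 and L4 were well above them all. The log2 fold change was 1.55 ± 0.52 with C3 (adjusted p = 0.122) and 2.01 ± 0.30 without it (adjusted p = 0.000655). Psph had 14.6 (C2), 13.0 (L4) and 2.95 CPM (C3), against 2.89 (S1), 2.76 (K4) and 3.10 CPM (Q1) with saline. Again C3 alone was at the saline level. The fitted log2 change was 1.81 ± 0.45 with C3 (adjusted p = 0.0860) and 2.24 ± 0.18 without it (adjusted p = 1.88e-05).

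Among the mitochondrial enzymes Shmt2, Mthfd1l and Mthfd2 rose without C3 and Aldh1l2 did not pass. Shmt2 had 147 (C2), 149 (L4) and 47.8 CPM (C3), against 38.6 (S1), 31.0 (K4) and 41.7 CPM (Q1) with saline. C3 was slightly above all 6 saline libraries here, as it was for Mthfd1l, and inside their range for the other 8 members. Shmt2 changed by 1.63 ± 0.37 on the log2 scale with C3 (edgeR adjusted p = 0.0860) and 2.00 ± 0.22 without it (adjusted p = 0.000117). Mthfd1l had 26.2 (C2), 16.0 (L4) and 6.47 CPM (C3), against 4.60 (S1), 4.99 (K4) and 4.94 CPM (Q1) with saline. C2 was the highest of the 12 libraries. In log2 terms the change was 1.74 ± 0.40 with C3 (adjusted p = 0.0860) and 2.12 ± 0.25 without it (adjusted p = 0.000165). Mthfd2 had 150 (C2), 138 (L4) and 68.8 CPM (C3), against 72.2 (S1), 51.2 (K4) and 85.0 CPM (Q1) with saline. Without C3 the cerulein libraries were above the saline ones. Cerulein over saline gave a log2 fold change of 0.78 ± 0.33 with C3 (adjusted p = 0.195) and 1.05 ± 0.28 without it (adjusted p = 0.0168). Aldh1l2 had 59.3 (C2), 60.2 (L4) and 86.6 CPM (C3), against 80.3 (S1), 76.7 (K4) and 108 CPM (Q1) with saline. C2 and L4 were below all saline libraries, but the log2 fold change of -0.56 ± 0.20 did not pass without C3 (adjusted p = 0.0584), nor did the -0.36 ± 0.22 with it (adjusted p = 0.315).

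Of the cytosolic enzymes, Mthfd1 had 7.14 (C2), 10.6 (L4) and 19.0 CPM (C3), against 19.4 (S1), 20.0 (K4) and 20.6 CPM (Q1) with saline. C3 was close to saline, and the other cerulein libraries were far below. The log2 fold change was -0.71 ± 0.27 with C3 (edgeR adjusted p = 0.157) and -1.17 ± 0.17 without it (adjusted p = 0.000486). Aldh1l1 had 21.1 (C2), 15.3 (L4) and 52.4 CPM (C3), against 79.2 (S1), 31.3 (K4) and 61.7 CPM (Q1) with saline. The saline libraries were widely spread. The fitted log2 change was -0.96 ± 0.44 with C3 (adjusted p = 0.229) and -1.66 ± 0.36 without it (adjusted p = 0.00691). Shmt1 had 2.23 (C2), 2.03 (L4) and 2.11 CPM (C3), against 1.63 (S1), 2.76 (K4) and 1.55 CPM (Q1) with saline. The groups overlapped, and the log2 fold change of 0.10 ± 0.29 did not pass with C3 (adjusted p = 0.851) or without it (adjusted p = 0.838).

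**Figure D2:**
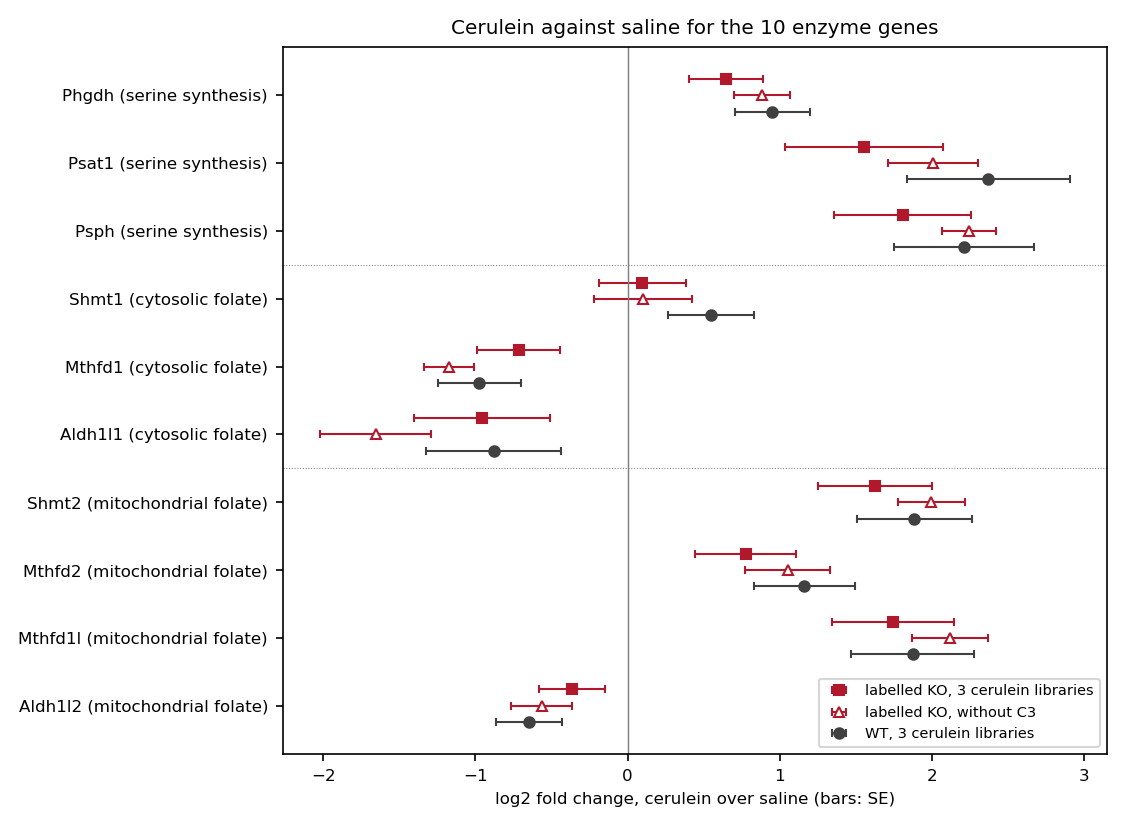
Log2 fold change of cerulein over saline (horizontal axis, bars are the SE) for each gene, in the labelled knockout with all 3 cerulein libraries (squares) and without C3 (open triangles) and in wild type (circles). Serine synthesis genes and Shmt2, Mthfd2 and Mthfd1l lie right of 0 in both genotypes, and Mthfd1, Aldh1l1 and Aldh1l2 lie left of it.

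Counts of a mitochondrial enzyme over those of its cytosolic counterpart in the same library do not depend on scaling between libraries. No p is given for these ratios, since the pairs were chosen with results known. Shmt2 counts were 82.4-fold (C2), 91.4-fold (L4) and 28.3-fold (C3) those of Shmt1 per kb of exon in the labelled knockout with cerulein, and 57.8-fold (O1), 49.6-fold (O3) and 36.0-fold (N3) in wild type with cerulein. With saline they were 14.0-fold to 33.6-fold in the labelled knockout and 16.4-fold to 25.7-fold in wild type. The ratio was thus above its wild-type saline range in every wild-type cerulein library, and in C2 and L4 above every saline library. Its denominator was small, at 26 to 91 Shmt1 counts per library. K4 and Q1, the ends of the saline range, had 62 and 26 Shmt1 counts. The log2 ratio differed between cerulein and saline by 1.85 in the labelled knockout without C3, by 1.31 with it and by 1.27 in wild type.

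Mthfd2 against Mthfd1 moved further. Per kb the ratio was 26.8 (C2), 16.6 (L4) and 4.62 (C3) in the labelled knockout with cerulein and 19.8 (O1), 20.96 (O3) and 11.6 (N3) in wild type with cerulein, against 3.26 to 5.25 in the labelled knockout with saline and 3.82 to 4.17 in wild type with saline. C3 alone of the cerulein libraries was in the saline range. The log2 difference was 2.29 in the labelled knockout without C3, 1.56 with it and 2.08 in wild type.

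Mthfd1l and Mthfd1 changed places. Their exon lengths are nearly equal, 4435 and 4442 bases. The ratio of Mthfd1l to Mthfd1 per kb was 3.68 (C2), 1.52 (L4) and 0.342 (C3) in the labelled knockout with cerulein, and 1.87 (O1), 1.83 (O3) and 1.25 (N3) in wild type with cerulein. It was 0.238 to 0.250 in the labelled knockout with saline and 0.202 to 0.267 in wild type with saline. Mthfd1l was thus the scarcer of the pair in all saline libraries and in C3, and the more abundant in the other 5 cerulein libraries. The log2 difference was 3.28 in the labelled knockout without C3, 2.35 with it and 2.82 in wild type, the widest of the 4 pairs in each case.

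Aldh1l2 against Aldh1l1 moved least of the 4 pairs. Per kb the ratio was 1.69 (C2), 2.37 (L4) and 0.994 (C3) in the labelled knockout with cerulein and 1.88 (O1), 1.85 (O3) and 0.890 (N3) in wild type with cerulein, 0.611 to 1.47 in the labelled knockout with saline and 1.12 to 1.46 in wild type with saline. C2, L4, O1 and O3 were above every saline library, and N3 and C3 were not, so the groups overlapped in wild type and, with C3, in the labelled knockout. The log2 difference was 1.02 in the labelled knockout without C3, 0.69 with it and 0.24 in wild type.

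**Figure D3:**
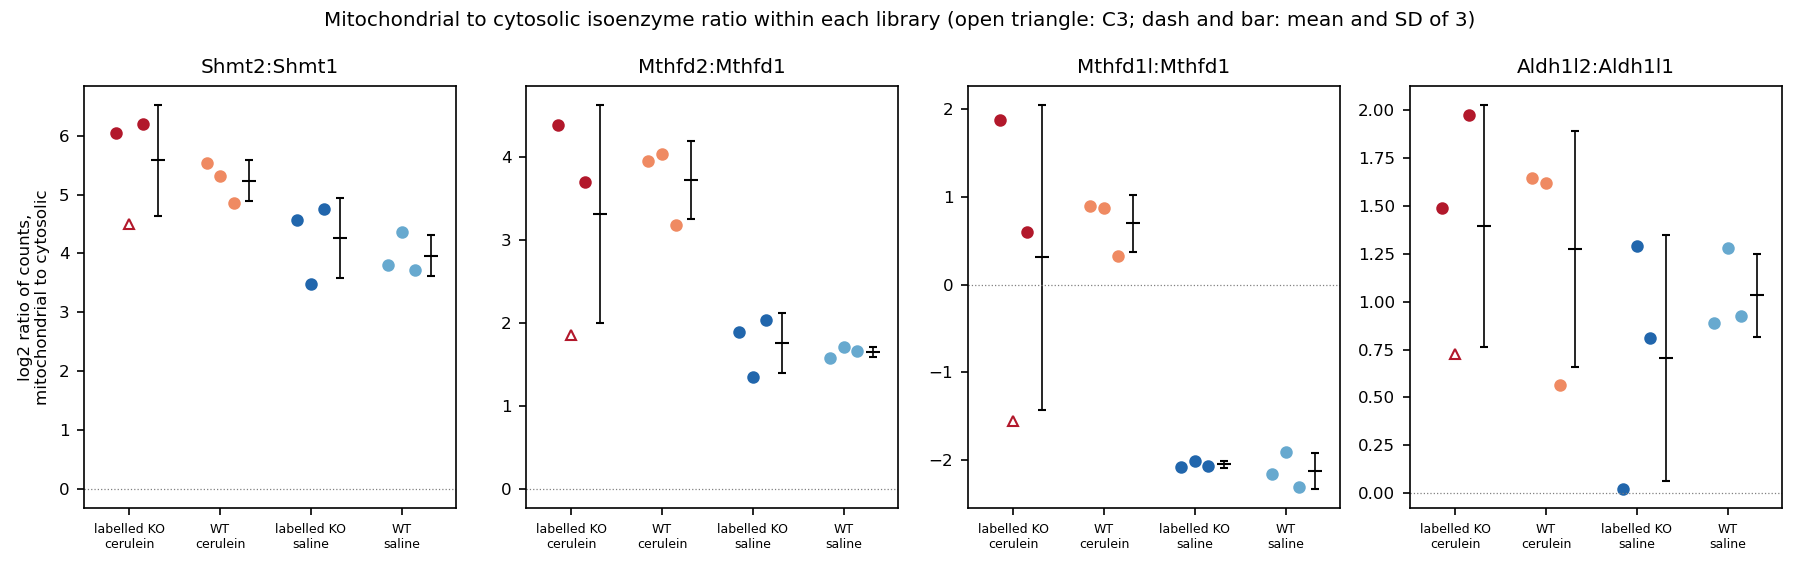
Log2 ratio of the counts of a mitochondrial enzyme to those of its cytosolic counterpart in each library (vertical axis, dotted line at 0), for 4 pairs. Points are libraries, the open triangle is C3, and the dash with its bar is the mean and SD of 3. Mthfd1l to Mthfd1 is below 0 in the 6 saline libraries and C3 and above 0 in the other 5 cerulein libraries, and for Aldh1l2 to Aldh1l1 N3 and C3 lie among the saline libraries or below them.

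The order of levels per kb of exon also shifted. In wild type with cerulein Phgdh averaged 100.6 CPM per kb, Shmt2 41.9, Mthfd2 38.6 and Psat1 30.1. The ranges of Shmt2 (29.9 to 48.8), Mthfd2 (24.1 to 46.8) and Psat1 (23.5 to 36.1) overlapped between libraries, with N3 lowest for each. Within each library the order was the same. Shmt2, Mthfd2 and Psat1 stood at 48.8, 44.8 and 30.8 CPM per kb in O1, at 46.9, 46.8 and 36.1 in O3, and at 29.9, 24.1 and 23.5 in N3. In wild type with saline Phgdh averaged 52.0, Mthfd2 17.2, Shmt2 11.4, Aldh1l2 10.8, Aldh1l1 8.79 and Psat1 5.81 CPM per kb. There Shmt2 was above Aldh1l2 in W1 and R3 and below it in K5, and Psat1 stood below both Aldh1l genes, which it exceeded with cerulein. In the labelled knockout with cerulein Phgdh, Shmt2, Mthfd2 and Psat1 averaged 85.9, 36.8, 34.1 and 21.4 CPM per kb, and without C3 101.0, 47.6, 41.3 and 29.3. In the labelled knockout with saline Phgdh, Mthfd2, Aldh1l1 and Shmt2 had the highest means, with 54.9, 19.9, 12.7 and 11.9 CPM per kb. The order below Mthfd2 differed between libraries. Aldh1l2 averaged 11.8 CPM per kb and was above Shmt2 in K4 and Q1. Aldh1l1 ran from 6.93 to 17.5 CPM per kb and was below Shmt2 in K4.

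The genotype label made no difference that passed a test. In saline 0 of 10 members were called (0% of all genes, with 60 at an unadjusted p under 0.05). Log2 fold changes of labelled knockout over wild type lay between -0.22 (Shmt1) and 0.53 (Aldh1l1). Psph was the member whose groups did not overlap, with all 3 labelled knockout libraries above all 3 wild-type ones (2.09% of all genes), at a log2 fold change of 0.42 ± 0.46 (edgeR adjusted p = 1). In cerulein 0 of 10 were called as well (0% of all genes, with 1146 at an unadjusted p under 0.05 and 11 called by DESeq2). Shmt1 was lower in all 3 labelled knockout libraries than in any wild-type one (4.29% of all genes), C3 included, by a log2 fold change of -0.67 ± 0.28 (edgeR adjusted p = 0.604, and 0.978 without C3). Without C3 Psph was wholly higher (9.49% of all genes), at 0.45 ± 0.17 (adjusted p = 0.974), and Aldh1l1 was at -0.24 ± 0.35, where with C3 it was at 0.46 ± 0.44.

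The difference between the genotypes' cerulein responses, tested as an interaction, was called for 0 of 10 members (0% of all genes, with 594 at an unadjusted p under 0.05 and 0 by DESeq2). It ran from -0.82 ± 0.72 for Psat1 (edgeR adjusted p = 0.822) to 0.29 ± 0.31 for Aldh1l2 (adjusted p = 0.840). Without C3 it ran from -0.78 ± 0.46 for Aldh1l1, which was at -0.08 ± 0.62 with C3, to 0.25 ± 0.34 for Mthfd1l (adjusted p = 0.999 for both), with Psat1 at -0.36 ± 0.40. A difference that misses the threshold does not show that the genotypes respond alike.

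The genes around the 10 were described through 7 lists with 53 genes, and for the lists counts and medians are given without a test. In the wild-type comparison, 2 of 8 tested folate handling genes were higher and 0 lower, with a median log2 fold change of -0.05. Beside this and the list counts that follow stand the 17.9% higher and 12.8% lower among all genes, and in lists this short the counts are a description only. Fpgs, which traps folates in cells by adding glutamates, rose by 0.90 ± 0.25 (edgeR adjusted p = 0.0235). Thymidylate synthase, Tyms, had -0.49 ± 0.29 and did not pass (adjusted p = 0.229).

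Of 7 transport genes 2 rose, 1 fell and the median was 0.87. The neutral amino acid transporter Slc1a5 rose by 1.91 ± 0.38 (edgeR adjusted p = 0.00918) and the reduced folate carrier Slc19a1 by 1.65 ± 0.37 (adjusted p = 0.0114). Sfxn1, a mitochondrial serine transporter, fell by 0.78 on the log2 scale (SE 0.19, adjusted p = 0.0132), while Shmt2, which uses serine in mitochondria, rose. Of 4 glycine cleavage and mitochondrial donor genes 0 rose and 1 fell, Amt, the aminomethyltransferase of that system (-1.46 ± 0.46, adjusted p = 0.0340). Amt was scarce, at 0.484 to 0.847 CPM in wild type with cerulein and 1.39 to 2.39 CPM with saline.

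In the methionine cycle 2 of 7 genes were higher and 2 lower, with a median of -0.47. Mat2a, the methionine adenosyltransferase of most tissues, rose by 2.41 ± 0.47 (edgeR adjusted p = 0.00918) and averaged 352 ± 55.0 CPM in wild type with cerulein and 66.3 ± 8.10 CPM with saline (SD, n = 3 each). The methionine synthase reductase Mtrr rose by 0.65 ± 0.19. Ahcy, which clears S-adenosylhomocysteine, changed by -1.48 ± 0.42 (adjusted p = 0.0239), and Gnmt, a glycine methyltransferase, by -1.35 ± 0.40 (adjusted p = 0.0274).

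Of the genes that use or break down serine 2 of 7 were higher and 3 lower, with a median of -0.63. Cth, the cystathionine lyase that yields cysteine, rose by 2.12 ± 0.51 (edgeR adjusted p = 0.0138), while Cbs, the step before it, changed by -0.87 ± 0.24 (adjusted p = 0.0209). The palmitoyltransferase subunit Sptlc2, which uses serine for sphingolipids, rose by 0.82 ± 0.26. The serine racemase Srr changed by -1.32 ± 0.32 (adjusted p = 0.0140). The serine dehydratase Sds also fell (adjusted p = 0.0238), but it was nearly silent, at 0.0484 CPM or less with cerulein and 0.129 to 0.670 CPM with saline.

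De novo purine synthesis, a main use of formyl groups, had 5 of 12 genes higher and 2 lower, with a median of 0.38. Adss rose by 1.31 ± 0.28 and Impdh1 by 0.90 ± 0.24, both enzymes that lead from inosine monophosphate to adenine or guanine nucleotides. Prps2, which makes the ribose phosphate donor, changed by -1.38 ± 0.31 and Paics by -0.96 ± 0.29 (edgeR adjusted p = 0.0109 and 0.0304). Of the enzymes that use 10-formyltetrahydrofolate directly, Atic rose by 0.48 ± 0.17 (adjusted p = 0.0485) and Gart had -0.10 ± 0.14 (adjusted p = 0.649). Among 3 regulators of serine genes, Atf4, the transcription factor of the amino acid response, rose by 1.87 ± 0.41 and Nfe2l2 by 1.83 ± 0.37 (adjusted p = 0.0110 and 0.00932), and Myc had 1.20 ± 0.43 (adjusted p = 0.0557).

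Without C3 the labelled knockout gave counts close to those of wild type without C3 in these lists, given as higher and lower. They were 4 and 1 in both for transport, 2 and 2 against 3 and 3 for the methionine cycle, 2 and 3 in both for serine use, 5 and 2 in both for purine synthesis, and 3 and 0 in both for the regulators. Mat2a changed there by 2.41 ± 0.19 (edgeR adjusted p = 1.67e-05) and Ahcy by -1.68 ± 0.22 (adjusted p = 0.000277). For folate handling the counts were 2 and 0 in both, and for glycine cleavage 1 and 1 against 0 and 1. Equal counts did not always cover the same genes. In purine synthesis without C3, Pfas was called higher only in the labelled knockout (edgeR adjusted p = 0.0128, against 0.0829 in wild type). Impdh2 was called higher only in wild type (edgeR adjusted p = 0.0241, against 0.318 in the labelled knockout). Among all genes without C3, 18.7% were higher and 10.5% lower in the labelled knockout. In wild type without C3 these shares were 21.3% and 16.6%. With C3 edgeR called none of the 53 genes, as it called no gene in the labelled knockout.

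**Figure D4:**
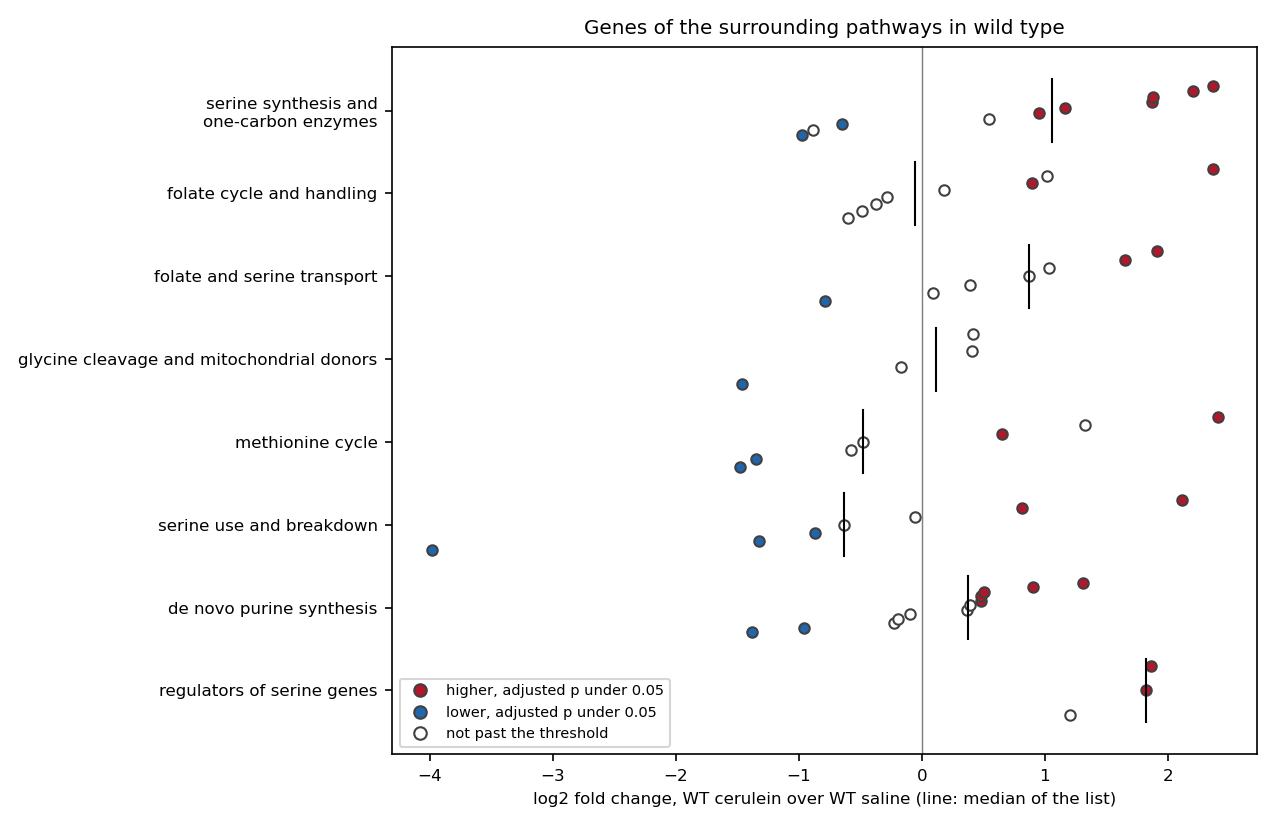
Log2 fold change of wild type with cerulein over wild type with saline (horizontal axis) for each tested gene of the 10 enzymes and of 7 lists around them. Filled points passed edgeR's test (red higher, blue lower), open points did not, and the line is the median of the list. Mat2a and Cth lie near Psat1 and Psph on the right, and the far-left point is Sds, whose fitted change rests on levels near 0.

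Genes with patterns like those of Mthfd2 and Phgdh were sought among 7616 genes with a mean of at least 5 CPM. The members themselves and unnamed gene models, such as Gm and Rik entries, were left out of this search. The genes found most like Mthfd2 over the 12 libraries were Spry1, Gmeb2, Lrrc59, Eif4ebp1 and Asns. The root mean square difference of their log2 levels from those of Mthfd2, each around its own mean, was 0.144 for Spry1 and 0.162 for Asns, while Mthfd2 itself varied by 0.594. Without C3 they were Mtfr1, Spry1, Asns, Gmeb2 and Tbc1d12. For Phgdh they were Hgs (0.0750), Pes1 (0.0846), Rae1, Csnk2a2 and Tmem11, and without C3 Hgs, Pes1, Sel1l3, Rae1 and Asns. Asns, the asparagine synthetase gene, is the gene in both lists from 11 libraries.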

How the data were processed

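The authors deposited whole-number read counts per Ensembl gene, with no normalization. Per the labels' protocols the libraries were made with Illumina's TruSeq stranded total RNA kit. HTSeq, DESeq2 and mm10 are named by the submitters' processing notes, which give no version. The aligner, annotation release and strand setting are not stated there and not given in the sources used here. Of 49585 identifiers 49326 matched GENCODE M21 on GRCm38, the source of symbols, coordinates and exon lengths.

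The 12 libraries entered a single robust quasi-likelihood fit with a mean for each group, after edgeR's filterByExpr and TMM scaling (edgeR 4.0.16 in R 4.3.3, with limma 3.58.1 and DESeq2 1.42.0 for alternatives). P-values are two-sided and Benjamini-Hochberg adjusted over all 14329 genes, at 0.05. Standard errors come from the log2 fold change over the root of its F statistic. The coefficient of variation was 0.357, and 0.304 without C3. The fit was tested on simulated data. The members, lists and tests were chosen with earlier results of these data known. From each list up to 4 genes past the threshold with the largest change were named by rule. Tyms, Sptlc2, Atic, Gart, Myc, Pfas and Impdh2 were named after their values were seen. Some genes of the lists stay in the counts and medians but are not reported here. The libraries are separate animals per the series' design, and those of a group differed by more than counting error. Tables and plots were made in Python 3.11.15 (NumPy 2.4.6, pandas 2.3.3, matplotlib 3.10.9). Alternatives were other scalings and filters, DESeq2, limma-voom, the compared groups alone and each library left out.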

Additional observations from a re-analysis of the deposited data

How the results depend on the processing

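The log2 fold changes of all members in the cerulein responses, and of the members at the extremes of the genotype comparisons and the interaction, were recomputed under 21 alternatives, except that the interaction cannot be fitted with the compared groups alone. Leaving Atf3 aside, 483 of these values kept their direction and their side of the threshold, 33 moved past it, 23 no longer passed and 5 changed sign. No paired analysis was possible because the groups share no replicate code. In wild type the count of members that fell was 1 with DESeq2 size factors and 1 with no filter on low counts. It was 3 with the wild-type libraries fitted alone. Of all genes tested, 1743 of 14329, 1058 of 25628 and 2346 of 13464 fell in these settings, in that order. The count of members that fell ran from 0 to 3 when 1 library was left out. The count of all genes called then ran from 1841 of 14819 (without O3) to 5583 of 14733 (without C3). In the labelled knockout the count of members that rose was 4 by DESeq2, 6 by DESeq2 without C3 and 6 by limma-voom without C3, and 0 to 6 when 1 library was left out. The count that fell was 3 by DESeq2 without C3, 2 by limma-voom without C3 and 0 to 2 when 1 library was left out. All genes called there numbered 1281 of 14234 tested by DESeq2 (1176 higher and 105 lower). They numbered 4445 of 16538 by DESeq2 without C3 (2677 higher and 1768 lower). By limma-voom without C3 they numbered 4286 of 14733 (2664 higher and 1622 lower). The count ran from 0 to 4306 when 1 library was left out. For labelled knockout against wild type in cerulein, DESeq2 called 11 genes, and 8 without C3. Aldh1l1 in that comparison was -0.27 by DESeq2 without C3, -0.23 by limma-voom without C3, and -0.24 to 0.77 when 1 library was left out. Atf3 there was -0.73 by limma-voom. Shmt1 in the labelled knockout response ran from -0.045 (without Q1) to 0.38 when 1 library was left out. DESeq2 and limma-voom without C3 were added after the data were seen. Leaving out a cerulein library of the labelled knockout leaves 2, and the cause of these shifts was not tested. Shmt1 and Psph rest on the fewest counts, 26 to 91 and 36 to 499 per library.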
